A study of Mus musculus with 17 samples.

Results

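The early transcriptional response to renal ischemia-reperfusion injury (IRI) was examined in 9 kidney cortex samples labelled CCN2 knockout (CCN2 KO), 5 taken after IRI and 4 after sham surgery. They were selected by their genotype and injury labels from the 17 samples of the series, whose other 8 were wild type (WT) kidneys, 4 IRI and 4 sham. All mice were male, 12 to 14 weeks old and of strain C57BL/6 (given as a C57BL/6J background in the methods of the study), and all carried floxed CCN2 alleles with ROSA26CreERT2, a Cre recombinase that is expressed from the ubiquitous ROSA26 locus and enters the nucleus once tamoxifen binds it. CCN2 KO mice had received 4 injections of tamoxifen in corn oil and WT mice corn oil alone, with 14 days of washout before surgery, so that drug and genotype cannot be told apart between the labels. Both groups compared here had received the drug. In IRI mice both renal pedicles were clamped for 25 min, sham mice had the same operation without clamping, and kidneys were collected 4 h later.

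Expression was measured by RNA-sequencing of poly(A) RNA and is given as deposited, as quantile-normalized log2 RPKM (reads per kilobase of gene, scaled to library size), which levels out at -3.32, an RPKM of 0.1. Read totals per library are unknown from these values. Differences are IRI minus sham in log2 units with the standard error (SE) of limma, a linear model fitted here to 12608 genes and 17 kidneys, and a gene was called at a Benjamini-Hochberg adjusted p under 0.05. All adjusted p-values given are from limma. Kidneys are named by the titles of the samples. All 5 IRI kidneys have titles beginning with 33, whereas 2 sham kidneys begin with 32 (32B4 and 32B5) and 2 with 33 (33B3 and 33B4). What the prefix stands for is not given in the sources used here, and values from prefix 33 alone are given beside every named gene whose call they ended. The sources do not tie each library to its own animal, so that p-values measure the spread between these libraries.

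Levels of the targeted gene overlapped between the CCN2 KO and WT labels in these libraries. Ctgf, which encodes CCN2, a matricellular protein of the CCN family, lies at chr10:24595442-24598683 (GRCm38, forward strand). Sham kidneys 32B4, 32B5, 33B3 and 33B4 gave Ctgf levels of 2.87, 2.95, 3.92 and 3.91. IRI kidneys 33D2 to 33D6 gave 5.04, 3.75, 4.16, 4.33 and 3.86, so that the groups overlapped and 33D2 stood furthest above the sham kidneys. The difference of 0.82 gave p = 0.0794 in a two-sided exact permutation test over 126 divisions of the 9 kidneys, whose smallest possible p is 0.00794. Ctgf ranged from 2.65 to 4.26 in WT sham kidneys and from 3.92 to 5.02 in WT IRI kidneys. Its level in CCN2 KO against WT kidneys was not tested here. By quantitative PCR the study reported that recombination lowered CCN2 mRNA, in sham as well as IRI kidneys. Which part of the gene Cre removes is not given in the sources used here. The name CCN2 KO therefore stands for the label throughout.

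As background, the kidney cortex consists mainly of proximal tubule, whose cells depend on mitochondrial respiration and are damaged when blood flow stops and returns. Within hours, surviving tubule cells switch on immediate early transcription factors, stress and cytoprotective genes, and secreted signals that attract leukocytes, whereas differentiated transport functions can be lost. CCN2 is itself induced by injury and by the mechanosensitive factors YAP and TAZ, and has been studied for its part in fibrosis.

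The response of the CCN2 KO kidneys was broad and uneven in size. Of 12608 genes tested, 1800 were higher after IRI (14.3%) and 1663 lower (13.2%). The increases reached further. By 1 log2 unit or more, 362 genes rose and 180 fell, by 2 or more 91 rose and 7 fell, and by 3 or more 28 rose and 1 fell. The median difference over all genes tested was -0.017. In 1446 genes (11.5%) every IRI kidney was above every sham kidney, and in 1165 (9.24%) every IRI kidney was below. With the 2 sham kidneys of prefix 33 alone, 1176 genes were higher and 917 lower. In a fit to the 9 CCN2 KO kidneys alone, whose spread does not draw on WT kidneys, 1502 were higher and 1284 lower.

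The 5 IRI kidneys did not respond to the same extent. For each kidney, genes were taken from a fit without it, so that the sets differed, from 1444 genes higher for 33D2 to 1826 for 33D6. Over the genes called higher in those fits, the median excess above the sham mean was 0.70 in 33D2, 0.61 in 33D3, 0.67 in 33D4, 0.73 in 33D5 and 0.43 in 33D6. Over the genes called lower in those fits, 33D6 was again nearest to sham, at -0.37 against -0.48 to -0.64 in the other 4. In all 19 gene lists with at least 5 members called higher and at most 1 lower, 33D6 had the lowest mean of the 5 IRI kidneys. Leaving 33D6 out gave 1826 genes higher and 1730 lower. Pearson correlations between libraries, over the genes tested, were 0.93 to 0.961 within IRI, 0.926 to 0.958 within sham and 0.879 to 0.945 between the groups.

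**Figure D1:**
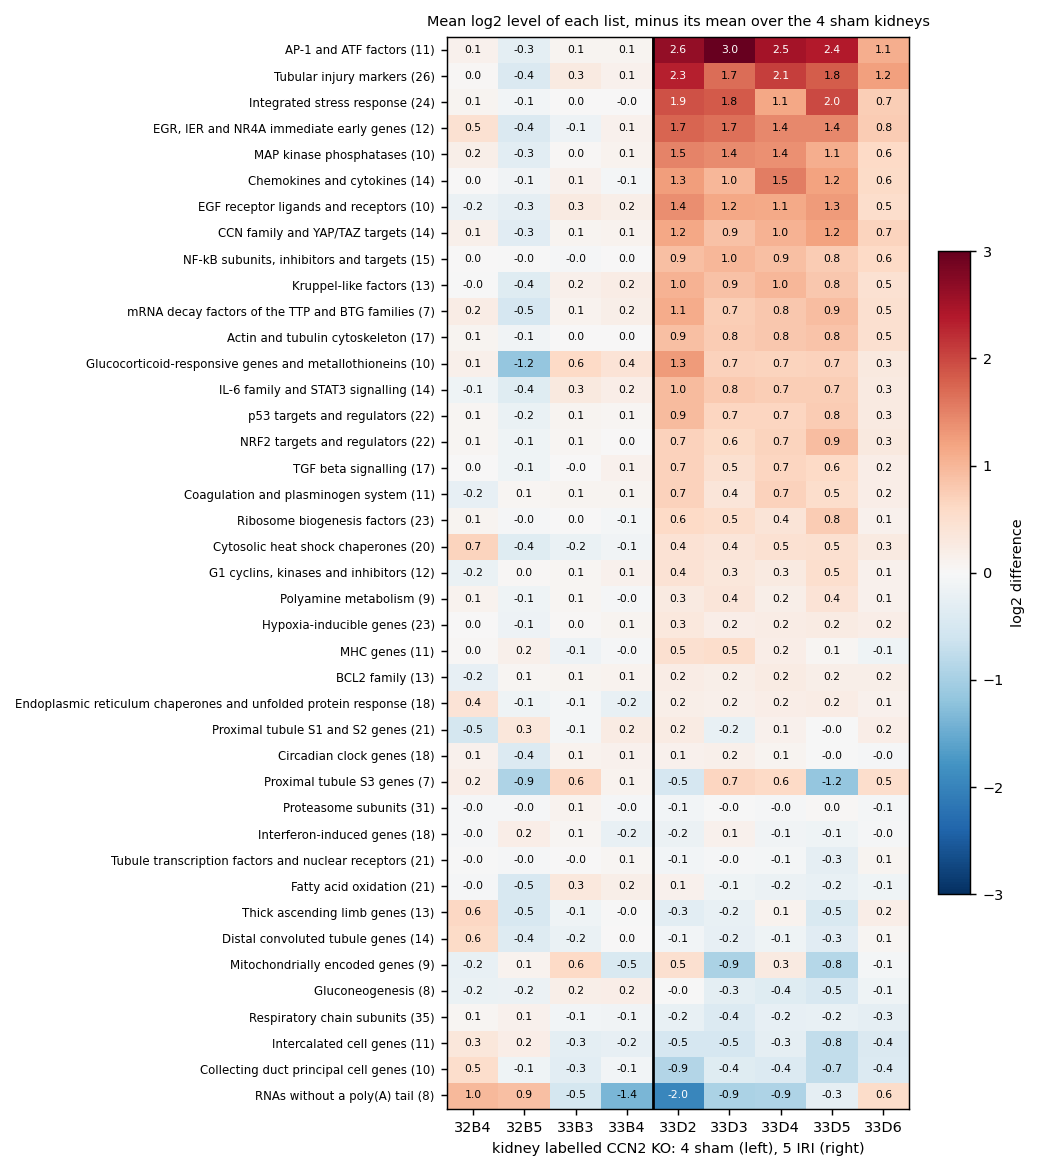
Mean deposited log2 level of each gene list in each CCN2 KO kidney, minus the mean of the 4 sham kidneys (columns: 4 sham on the left of the line, 5 IRI on the right; rows: lists, with the number of members tested; color: log2 difference). Injury, AP-1, immediate early and integrated stress response lists are high in all 5 IRI kidneys and palest in 33D6, and collecting duct, intercalated cell and respiratory chain lists lie below the sham mean in all 5.

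Markers of tubular injury included the gene with the largest increase, Krt20. Of 26 members tested, 20 were higher and 0 lower, with a median difference of 1.25. Krt20, a keratin of stressed epithelium at chr11:99428403-99438150 (reverse strand), was at the floor of -3.32 in sham kidneys 32B4, 32B5 and 33B4 and at -1.79 in 33B3. After IRI it reached 6.09, 5.97, 7.15, 5.77 and 3.50, a difference of 8.64 ± 0.52 (SE, adjusted p = 2.31e-08). No sham kidney came near the lowest IRI kidney, 33D6. Because most sham values lie on the floor, the size of this difference depends on the scale, and on log2(RPKM + 1) it was 5.54.

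Havcr1 encodes KIM-1, a receptor for dying cells that injured proximal tubule exposes, and lies at chr11:46735080-46779578 (forward strand). Its sham levels were 0.31, -2.66, 0.39 and -0.42, and its IRI levels 5.37, 4.31, 5.87, 5.54 and 3.38 (difference 5.49 ± 0.59, adjusted p = 1.33e-05). Sox9, a transcription factor of regenerating tubule, stood at -0.95, -2.90, -1.86 and -1.79 in sham and at 3.52, 1.43, 2.07, 1.95 and 0.62 after IRI (3.79, adjusted p = 0.000131). In both genes the groups were far apart, 32B5 was the lowest sham kidney and 33D6 the lowest IRI kidney. Lcn2, which encodes the secreted injury marker NGAL, rose less, from -0.19, -2.65, -0.01 and 0.09 to 2.20, 1.37, 1.67, 2.30 and 0.77 (2.36, adjusted p = 0.00177).

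Tnfrsf12a, the receptor of the cytokine TWEAK, combined a large change with a high level. It went from 3.76, 3.33, 3.85 and 4.04 in sham to 8.04, 8.23, 7.45, 8.06 and 6.79 after IRI (3.97 ± 0.24, adjusted p = 2.31e-08). S100a10, which binds annexin A2, rose with little spread from 5.39, 5.49, 5.38 and 5.18 to 7.51, 7.85, 7.94, 7.83 and 7.14 (2.29, adjusted p = 2.31e-08). Even 33D6 was more than 1 log2 unit above every sham kidney in these genes. Sprr1a, a crosslinked envelope protein best known from skin, rose by 3.51 (adjusted p = 0.000591), and the keratin gene Krt8 by 2.64 (adjusted p = 4.49e-08).

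**Figure D2:**
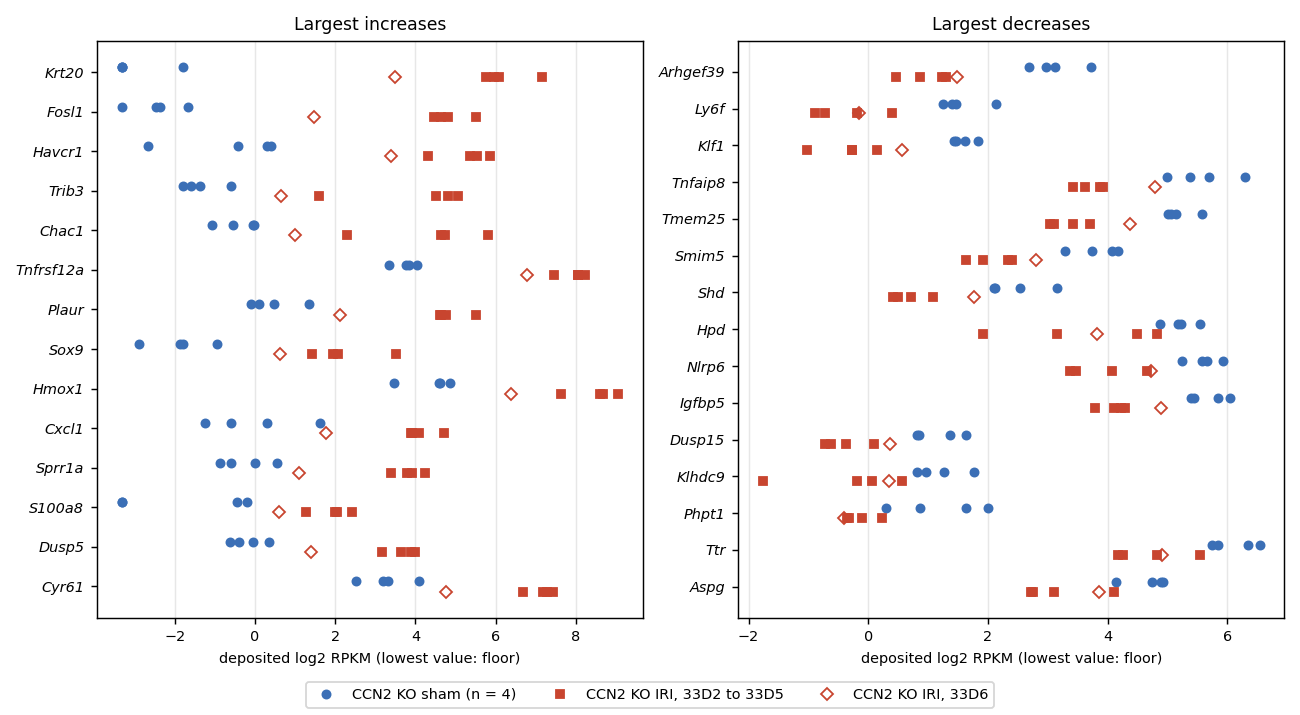
Deposited log2 RPKM of the named genes with the largest increases (left, 14 genes) and decreases (right, 15 genes) among those called with no overlap between groups, in 4 sham kidneys (circles), IRI kidneys 33D2 to 33D5 (squares) and 33D6 (open diamonds). In most genes on the left 33D6 is the IRI kidney nearest to sham, and the decreases on the right are smaller than the increases.

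Most immediate early transcription factors tested were higher in IRI than in sham kidneys, at the single time of 4 h after reperfusion. Of 11 AP-1 and ATF factors tested, 8 were higher and 0 lower, with a median of 1.60. Fosl1, whose product FRA-1 pairs with JUN proteins to form AP-1, went from -3.32, -2.47, -1.66 and -2.38 in sham to 4.46, 5.52, 4.81, 4.64 and 1.48 after IRI (6.64 ± 0.58, adjusted p = 1.59e-06). Fos was at 0.28, -2.21, -1.45 and -0.86 in sham and at 2.21, 2.34, 2.55, 2.41 and 0.92 after IRI (3.14, adjusted p = 0.00012). Fosl1 thus ended at a higher RPKM than Fos in every IRI kidney. Its family members Fosb (3.51, adjusted p = 0.000106) and the stress factor Atf3 (3.84, adjusted p = 0.000247) also rose, but Atf3 in 33D6 (0.70) lay below sham kidney 32B4 (0.81). Jun and Junb rose by 1.60 and 1.39 (adjusted p = 0.00427 and 0.00146). Jund differed by 0.44 (adjusted p = 0.175), and by 0.67 (adjusted p = 0.0359) without 32B4 and 0.83 (adjusted p = 0.037) in prefix 33 alone.

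Among 12 EGR, IER and NR4A genes 10 were higher and 0 lower, with a median of 1.25, and 6 were higher with the prefix as a covariate. Egr1, a serum-responsive zinc finger factor, rose from -0.16 to 0.83 in sham to 1.88 to 3.93 after IRI (2.92, adjusted p = 3.18e-05). Egr2 rose by 2.92 from levels at or near the floor (adjusted p = 0.000659), and Ifrd1, a co-regulator of transcription, by 2.26 (adjusted p = 0.000372). Nr4a1, an orphan nuclear receptor, differed by 1.77 (adjusted p = 0.0057), although sham kidney 32B4 at 2.63 lay within the IRI range of 2.27 to 3.10. Krüppel-like factors followed in part, with 6 of 13 higher and 0 lower. Klf6 (2.44, adjusted p = 0.000192) and Klf5 (2.97, adjusted p = 0.00298) led them, whereas Klf2, a factor of endothelium under shear stress, differed by 0.02 (adjusted p = 0.962).

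Genes that end signaling or shorten the life of messenger RNA rose as well. Of 10 dual specificity phosphatases of the MAP kinases, 6 were higher and 0 lower. Dusp5, a nuclear phosphatase of ERK, went from -0.06, -0.41, 0.35 and -0.62 to 3.65, 4.00, 3.89, 3.17 and 1.39 (3.41, adjusted p = 3.55e-05). Dusp8 rose by 2.51 (adjusted p = 0.000708) and Dusp4 by 2.04 (adjusted p = 2.52e-05), and Dusp1 differed by 0.22 (adjusted p = 0.718). In the TTP and BTG families, 6 of 7 were higher, but 2 in prefix 33 alone. Zfp36, which encodes tristetraprolin, rose by 1.03 (adjusted p = 0.00827; 0.72 and 0.0611 with the prefix as a covariate) and Btg2 by 1.22 (adjusted p = 0.00438). Btg1 rose by 0.84 (adjusted p = 0.00682), but was not called in prefix 33 alone (0.72, adjusted p = 0.0954). Tob2 rose by 0.91 (adjusted p = 0.0356). Its call was lost without 32B5 (0.51), where it was lowest, without 33D2 (0.86), 33D4 (0.87), 33D5 (0.89) or 33D6 (0.84), and in prefix 33 alone (0.58), with adjusted p from 0.0651 to 0.133.

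The promoters of genes that rose were searched for letters that the induced factors are known to bind, and most held none of a given motif. RefSeq promoters (GRCm38.p6) were found for 9094 of the genes tested, and the 250 bases before each start were searched on both strands for 7 short motifs. Shares are of genes with a promoter, and a gene counted if any of its promoters held the letters. The AP-1 letters TGAGTCA were present in 3.99% of all genes tested and in 6.96% of those called higher. They were in 18.03% of the 61 that rose by 2 or more, which are 11 genes, and in 2.98% of those called lower. The CRE letters TGACGTCA, bound by CREB and ATF factors, were in 3.09%, 3.67%, 8.20% and 2.35% of the same sets. TGATGNAA, the composite letters of C/EBP and ATF proteins, gave 2.33%, 3.01%, 4.92% and 2.19%. The core of NF-kB sites, GGG and TTCC with 3 bases between them, gave 6.15%, 7.62%, 4.92% and 4.39%. The heat shock letters TTCNNGAA gave 7.03%, 7.40%, 14.75% and 6.34%, and the antioxidant response letters TGACNNNGC 14.2%, 17.08%, 24.59% and 14.02%. For the serum response only the fixed letters CCATATTAG were searched, which were in 0.09% of all genes tested and in none of the called genes. Other forms of the serum response element were not searched, so that called genes may hold them. Counted by promoter and not by gene, AP-1 was held by 4.46% of all 32851 promoters of the table, CRE by 1.55%, C/EBP-ATF by 3.45% and NF-kB by 4.65%. Of 11611 promoters of genes tested, AP-1 letters overlapped antioxidant letters in 48. A match is a description of the sequence and not a site of binding.

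Shown next are 60 bases around the match of the 2 genes with the largest increase for each of 4 motifs, because they are the matches in the leading genes of the response to motifs named after the factors described here. They are given 5′ to 3′ on the strand of the gene, with the motif on either strand in capitals. For AP-1 these are Plaur, the receptor of urokinase, at chr7:24462388-24462447, and Sprr1a at chr3:92485994-92486053, whose match overlaps antioxidant letters.
Plaur: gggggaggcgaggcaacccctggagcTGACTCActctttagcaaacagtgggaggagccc
Sprr1a: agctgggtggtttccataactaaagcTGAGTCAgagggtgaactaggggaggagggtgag
For C/EBP-ATF they are Chac1 at chr2:119351023-119351082 and Atf3 at chr1:191183410-191183469, which hold the same 8 letters.
Chac1: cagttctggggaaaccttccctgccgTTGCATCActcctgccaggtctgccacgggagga
Atf3: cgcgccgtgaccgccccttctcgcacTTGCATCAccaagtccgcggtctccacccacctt
For CRE they are Areg at chr5:91139512-91139571 and Dusp8 at chr7:142095358-142095417.
Areg: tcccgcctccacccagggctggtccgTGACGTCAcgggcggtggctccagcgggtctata
Dusp8: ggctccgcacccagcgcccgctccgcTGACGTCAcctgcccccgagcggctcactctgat
For NF-kB they are Cxcl1 at chr5:90891131-90891190, with 3 matches in the window, and Dusp5 at chr19:53529030-53529089.
Cxcl1: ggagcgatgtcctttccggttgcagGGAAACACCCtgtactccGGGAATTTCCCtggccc
Dusp5: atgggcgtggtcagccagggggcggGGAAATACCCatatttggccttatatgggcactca

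Genes of the integrated stress response rose almost as a block. This pathway halts most translation when a stress kinase phosphorylates the initiation factor eIF2, while ATF4 is still made and switches on amino acid genes. Of 24 members tested, 20 were higher and 0 lower, with a median of 1.25, and in prefix 33 alone 19 were higher and 1 lower. Asns, asparagine synthetase, was the most even, with 0.44, 0.20, 0.55 and 0.69 in sham and 4.09, 3.96, 3.29, 4.24 and 2.96 after IRI (3.24 ± 0.25, adjusted p = 6.68e-07). Chac1, which degrades glutathione, went from -0.05, -0.56, -0.02 and -1.07 to 4.73, 5.80, 2.29, 4.64 and 0.99 (4.12, adjusted p = 0.000858). Trib3, a pseudokinase that restrains AKT and ATF4, went from -0.59, -1.79, -1.59 and -1.37 to 4.51, 4.80, 1.59, 5.06 and 0.66 (4.66, adjusted p = 0.000659). In both genes 33D4 and 33D6 were clearly below 33D2, 33D3 and 33D5. The list mean split the same way, at 1.92, 1.83 and 1.99 above sham in 33D2, 33D3 and 33D5 against 1.15 in 33D4 and 0.73 in 33D6.

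Atf4 itself rose by 1.65 (adjusted p = 0.000355), and Ddit3, which encodes the factor CHOP, by 1.71 (adjusted p = 0.00761), where 33D6 at 3.19 lay below sham kidneys 32B4 and 32B5. Phgdh, which opens serine synthesis, rose by 2.72 (adjusted p = 0.0027) and the stress hormone Gdf15 by 2.20 (adjusted p = 0.00405). Chaperones of the endoplasmic reticulum changed less. Of 18 genes of the unfolded protein response 5 were higher and 0 lower, beside 14.3% and 13.2% over all genes tested. Their median was 0.09, and 3 were higher without 32B5. Dnajb9, a target of the sensor IRE1, rose by 1.22 (adjusted p = 0.000102), Atf6 by 0.77 (adjusted p = 0.000631) and Herpud1, which aids degradation of misfolded proteins, by 0.64 (adjusted p = 0.00241). Hspa5, the main chaperone BiP, rose by 0.66 (adjusted p = 0.0356) and missed the threshold without 32B5 (0.60), 33B3 (0.59), 33B4 (0.54), 33D2 (0.66), 33D4 (0.62) or 33D5 (0.60), with adjusted p from 0.0618 to 0.106. Hsp90b1 differed by 0.16 (adjusted p = 0.535).

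Oxidative stress genes rose selectively. Of 22 targets and regulators of NRF2, the factor that answers electrophiles and oxidants, 11 were higher and 1 lower, with a median of 0.33, and in prefix 33 alone 7 were higher and 1 lower. Hmox1, which breaks down heme, stood out at 4.61, 3.47, 4.85 and 4.59 in sham and 8.60, 8.67, 7.62, 9.06 and 6.39 after IRI (3.69 ± 0.42, adjusted p = 2.39e-05). Srxn1, which restores oxidized peroxiredoxins, went from 4.86, 4.67, 4.68 and 4.83 to 7.45, 7.43, 7.67, 7.99 and 6.10 (2.56, adjusted p = 7.47e-06). Both separated the groups fully and gave a tight sham group, apart from the low Hmox1 value of 32B5. The catalytic subunit of glutamate-cysteine ligase, Gclc, rose by 1.56 (adjusted p = 3.34e-05) and its modifier Gclm by 0.66 (adjusted p = 0.00218). Nqo1, a quinone reductase often used to read NRF2 activity, stood at 4.59 to 5.20 in sham and 4.71 to 5.40 after IRI (0.26 ± 0.16, adjusted p = 0.25). Keap1, the inhibitor of NRF2, differed by 0.17 (adjusted p = 0.139). Nfe2l2, the gene of NRF2, rose by 0.57 (adjusted p = 0.00981), but by 0.49 in prefix 33 alone (adjusted p = 0.0652).

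Blvrb, a biliverdin reductase downstream of heme breakdown, went against the list and fell by 0.48 (adjusted p = 0.0312). Its call was lost without 32B5 (-0.44), 33B3 (-0.36), 33B4 (-0.49), 33D2 (-0.45), 33D3 (-0.47), 33D5 (-0.49) or 33D6 (-0.45), at adjusted p of 0.0507 to 0.113. The metal-binding metallothioneins rose in all IRI kidneys, Mt1 from 7.02 to 7.36 in sham to 7.81 to 9.12 (1.31, adjusted p = 0.000417), and Mt2 by 1.60 (adjusted p = 0.00125).

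Of 20 cytosolic heat shock chaperones 8 were higher and 0 lower, with a median of 0.41, and 5 were higher without 32B5, 33B3, 33B4 or 33D4. Hsp90aa1 rose by 0.95 (adjusted p = 0.00696), Hspb1 by 1.10 (adjusted p = 0.0109) and the co-chaperone Bag3 by 1.09 (adjusted p = 0.00114). The inducible HSP70 genes turned on 1 sham kidney. Hspa1a was at 3.87 in 32B4 but at 0.61 to 1.55 in the other sham kidneys, against 2.15 to 3.10 after IRI (0.93, adjusted p = 0.152). Without 32B4 the difference was 1.66 (adjusted p = 0.000369), and in prefix 33 alone 1.54 (adjusted p = 0.00303). Hspa1b, its near-identical neighbor, whose reads may be shared, gave 0.92 (adjusted p = 0.173) and 1.69 without 32B4 (adjusted p = 0.00028), with 1.68 in prefix 33 alone (adjusted p = 0.00246).

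Of 22 p53 targets and regulators 10 were higher and 0 lower, with a median of 0.55, and 5 were called without 32B5 and 5 in prefix 33 alone. Plk3, a stress kinase, went from 3.98, 1.20, 3.84 and 3.20 in sham to 7.04, 6.67, 5.59, 6.68 and 4.79 after IRI (3.09, adjusted p = 0.00032). Cdkn1a, which encodes the cell cycle inhibitor p21, stood at 2.75, 1.06, 2.37 and 2.45 in sham and at 5.54, 4.32, 3.97, 4.11 and 2.92 after IRI (2.01, adjusted p = 0.0102), and gave 1.34 (adjusted p = 0.0745) with the prefix as a covariate. In both, 32B5 was the lowest sham kidney and no kidneys overlapped. Gadd45a, a growth arrest gene induced by DNA damage, rose by 1.56 (adjusted p = 0.00693), with 33D6 at 3.76 inside the sham range of 3.64 to 4.15, and gave 1.63 in prefix 33 alone (adjusted p = 0.0514). Mdm2, the ligase that destroys p53, rose by 0.53 (adjusted p = 0.00986) and gave 0.54 in prefix 33 alone (adjusted p = 0.0515).

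Trp53, the p53 gene, differed by 0.40 at the edge of the threshold (adjusted p = 0.0447). Its call was lost when any of the 9 kidneys was left out (0.35 to 0.43, adjusted p = 0.0532 to 0.105), without WT sham kidney 33A2 (0.40, adjusted p = 0.0537), and in prefix 33 alone (0.41, adjusted p = 0.0723). The BCL2 family sets the threshold of apoptosis. Of 13 genes listed, 3 were higher and 0 lower, beside 14.3% and 13.2% over all genes tested. The survival genes Mcl1 (1.44, adjusted p = 1.59e-06) and Bcl2l1, which encodes Bcl-xL (0.89, adjusted p = 0.000659), were among them with Bcl10, an adaptor of NF-kB signaling that belongs to the list by name and not to the protein family (0.73, adjusted p = 0.00346), and Bcl2 differed by 0.07 (adjusted p = 0.773). Of 12 cell cycle genes of G1 phase 3 were higher, again beside 14.3% over all genes tested. They were Myc (2.23, adjusted p = 0.00198), Cdk6 (1.58, adjusted p = 0.000803) and E2f3 (0.88, adjusted p = 0.0125). E2f3 was not called without 32B5 (0.64, adjusted p = 0.0503) or in prefix 33 alone (0.55, adjusted p = 0.166). Ccnd1, cyclin D1, differed by 0.30 (adjusted p = 0.343). The chromatin protein gene Hmgb1 differed by 0.00 ± 0.08 (adjusted p = 0.99), and Tbp, the reference gene of the study for PCR, by 0.00 ± 0.17 (adjusted p = 1).

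Inflammatory signals rose in part. Of 14 chemokines and cytokines tested 5 were higher and 1 lower, and 7 more were too low to test. Cxcl1, which attracts neutrophils, went from 1.63, -0.59, 0.31 and -1.25 in sham to 3.92, 4.08, 4.70, 3.90 and 1.78 after IRI (3.65 ± 0.67, adjusted p = 0.000972). Its lowest IRI kidney, 33D6, lay just above its highest sham kidney, 32B4. Ccl2, which attracts monocytes, went from -1.58, -3.32, -0.64 and -0.99 to 0.75, 0.68, 1.78, 0.26 and 1.59 (2.64, adjusted p = 0.00427), and was not called in prefix 33 alone (1.83, adjusted p = 0.0773). Lif, a cytokine of the IL-6 family, rose by 2.78 (adjusted p = 0.00173), while the macrophage growth factors Il34 and Csf1 rose by 2.06 and 1.28 (adjusted p = 3.23e-05 and 0.000789). Cxcl2 was at the floor in 3 sham and 2 IRI kidneys (1.11, adjusted p = 0.294).

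The exception was Cxcl12, a homing signal for CXCR4-positive cells, which fell by 0.37 (adjusted p = 0.0299). Its call was lost without 32B5 (-0.37), 33B3 (-0.29), 33B4 (-0.36), 33D2 (-0.34), 33D4 (-0.36) or 33D5 (-0.30), with adjusted p from 0.0584 to 0.104.

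Of 15 NF-kB subunits, inhibitors and targets 10 were higher and 0 lower, with a median of 0.79. Relb was at -0.15 to 0.41 in sham and 1.59 to 2.37 after IRI (1.84, adjusted p = 2.01e-05). Nfkb2, its partner subunit, rose by 1.48 (adjusted p = 5.47e-06), and the regulators Bcl3 and Tnfaip3 by 1.73 and 1.25 (adjusted p = 4.61e-05 and 0.00131). The list mean was 0.77 to 0.99 above sham in 33D2 to 33D5 and 0.60 in 33D6, which was the lowest IRI kidney in all 4 genes. In the IL-6 and STAT3 list 7 of 14 were higher. Stat3 itself went from 2.86, 2.50, 2.86 and 2.96 to 4.46, 4.08, 3.93, 4.06 and 3.77 (1.26, adjusted p = 8.56e-06). Socs3, its feedback inhibitor, rose by 2.08 (adjusted p = 0.000421) and the transcription factor Cebpb by 1.25 (adjusted p = 0.00373).

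Most neutrophil markers and all lymphocyte markers were too low to test in these kidneys, as were 5 of 13 macrophage markers. As in all bulk samples, fewer cells of a type and less RNA per cell cannot be told apart. Of 13 neutrophil markers 3 were high enough to test and 1, S100a8, was called, at the floor in 32B4 and 32B5, at -0.46 and -0.21 in 33B3 and 33B4 and at 1.26, 1.99, 2.05, 2.42 and 0.61 after IRI (3.50, adjusted p = 0.0038). In prefix 33 alone the difference of S100a8 was 2.01 (adjusted p = 0.0105). Its partner S100a9 differed by 1.59 (adjusted p = 0.101), and by 2.06 without 33B3 (adjusted p = 0.0487). The granule genes Elane and Camp were at the floor in all 9 kidneys. The summed RPKM of neutrophil markers was 1.93 to 6.11 in sham and 7.21 to 13.7 after IRI, and their part in the inflammatory lists was not tested. Of 8 macrophage markers tested 1, Cd68, a lysosomal protein, was higher (2.21, adjusted p = 6.52e-05), beside 14.3% over all genes tested. Sums over the macrophage list were 95.3 to 118 in sham and 101 to 248 after IRI. None of the 10 lymphocyte markers passed the filter, and their sums were 1.40 to 3.30 and 1.51 to 3.07.

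CCN genes and targets of YAP and TAZ rose although Ctgf itself was not called. Of 14 members tested 9 were higher and 0 lower, with a median of 0.82. In WT kidneys Ctgf was not called either (0.88, adjusted p = 0.0648), and its responses differed by -0.07 (adjusted p = 0.97). Cyr61, which encodes the related matricellular protein CCN1, went from 4.10, 2.53, 3.20 and 3.31 in sham to 7.18, 7.43, 6.69, 7.28 and 4.75 after IRI (3.39 ± 0.49, adjusted p = 0.000179). Ankrd1, a nuclear ankyrin protein and classic YAP target, went from -0.63, -1.60, -0.76 and -1.17 to 1.58, 0.72, 0.36, 1.64 and 0.27 (1.95, adjusted p = 0.00159). Cyr61 in 33D6 was the lowest of the IRI group by a wide margin, while Ankrd1 had no such gap. Amotl2 and Ajuba, junction proteins that restrain or relay this pathway, rose by 1.27 and 1.23 (adjusted p = 0.000466 and 0.000659), and Wwtr1, the gene of TAZ, by 0.97 (adjusted p = 0.000137). Nuak2, a kinase, rose by 1.10 (adjusted p = 0.0393). It was not called without 32B5 (0.77), 33D2 (1.03), 33D4 (0.98), 33D5 (1.01) or 33D6 (1.12), nor in prefix 33 alone (0.78), with adjusted p from 0.0515 to 0.194.

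In TGF beta signaling 6 of 17 were higher and 1 lower, but 3 and 0 in prefix 33 alone, and 3 were higher without 33D2 or without 33D5. The receptor Tgfbr2 rose by 1.12 (adjusted p = 2.17e-05) and Smad3, which carries the signal to the nucleus, by 0.90 (adjusted p = 0.000302). Tgfb1, the ligand, differed by 0.24 (adjusted p = 0.361). The corepressor Tgif1 differed by 0.95 (adjusted p = 0.0476), but by 0.63 without 32B4, the lowest sham kidney (adjusted p = 0.165), and by 0.61 in prefix 33 alone (adjusted p = 0.319). It was also not called without 32B5, 33B4, 33D2, 33D3, 33D4 or 33D5 (0.83 to 1.05) or without WT kidney 32A1, 32A2, 33A1, 33C1, 33C2 or 33C3 (0.95), with adjusted p from 0.052 to 0.104. Id3, an inhibitor of differentiation induced by BMPs, fell by 0.69 (adjusted p = 0.0267). It lost its call without 32B4 (-0.64), 32B5 (-0.58) or 33D6 (-0.50), and in prefix 33 alone (-0.43), with adjusted p from 0.0505 to 0.232.

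Ligands of the EGF receptor family, which drive repair of the tubule, were among the leading genes. Nrg1, neuregulin, went from 1.35, 1.04, 1.85 and 1.55 to 4.75, 4.57, 4.55, 5.11 and 3.96 (3.14 ± 0.19, adjusted p = 2.31e-08). Hbegf went from 3.22, 2.66, 3.09 and 3.08 to 5.10, 5.09, 4.55, 5.00 and 3.66 (1.67, adjusted p = 0.000277). Areg, amphiregulin, was at the floor in 3 sham kidneys and -2.35 in 33B3, and at 2.67, 1.01, 0.19, 2.74 and the floor again in 33D6 (3.74, adjusted p = 0.00452). Nrg1 and Hbegf separated the groups, whereas Areg did not because of 33D6, and was not called in prefix 33 alone (3.49, adjusted p = 0.064). Egf, made in the distal tubule, differed by 0.62 (adjusted p = 0.234). Errfi1, a feedback inhibitor of the receptor, rose by 0.48 (adjusted p = 0.0353), a call lost without any 1 of 32B4, 32B5, 33D2 and 33D4 (adjusted p = 0.0592 to 0.124) and in prefix 33 alone (0.11, adjusted p = 0.519). In all, 4 of 10 members were higher and 0 lower, and 2 were higher in prefix 33 alone.

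Coagulation and plasminogen genes included 3 of 11 higher and 0 lower, beside 14.3% and 13.2% over all genes tested. Plau, urokinase, was already at 5.79 to 7.36 in sham and reached 8.18 to 9.51 (2.08, adjusted p = 0.000206), and its receptor Plaur went from -0.09, 0.10, 0.48 and 1.34 to 4.63, 4.77, 4.61, 5.51 and 2.13 (3.87, adjusted p = 8.84e-05). F3, tissue factor, held 3.26 to 3.41 in sham and 6.02, 5.82, 5.57, 5.86 and 3.65 after IRI (2.05, adjusted p = 0.000443). Both Plaur and F3 were much lower in 33D6 than in the other IRI kidneys. Thbs1, thrombospondin, rose by 0.73 (adjusted p = 0.00483).

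Most genes of the cytoskeleton and of the machinery that builds ribosomes rose, mostly by smaller steps. Of 17 actin and tubulin genes 12 were higher and 0 lower, with a median of 0.55. Tubb6, a beta tubulin, went from 0.54, 1.09, 1.31 and 1.12 to 3.86, 3.69, 4.12, 3.45 and 3.35 (2.68, adjusted p = 1.19e-06). Vcl, vinculin of focal adhesions, rose by 1.48 (adjusted p = 1.38e-06), the non-muscle myosin Myh9 by 1.21 (adjusted p = 4.79e-06) and Actb by 0.65 (adjusted p = 0.00228). Of 23 ribosome biogenesis factors 16 were higher and 1 lower, with a median of 0.51, and 13 and 1 in prefix 33 alone. Its mean above sham was 0.39 to 0.77 in 33D2 to 33D5 and 0.12 in 33D6. The nucleolar proteins Nop58 (1.21, adjusted p = 0.00145), Gnl3 (1.10, adjusted p = 0.00159) and Nop56 (1.0, adjusted p = 0.00133) led the list with the helicase Ddx21 (1.01, adjusted p = 7.98e-05). Utp20, a component of the small subunit processome, went the other way, from 3.41, 2.96, 3.44 and 3.46 to 2.73, 2.50, 2.46, 2.41 and 2.88, and fell by 0.72 (adjusted p = 0.00265). The largest hypoxia response was that of Adm, adrenomedullin, a vasodilator peptide (1.64, adjusted p = 0.00209). In its list 6 of 23 were higher and 1 lower, beside 14.3% and 13.2% over all genes tested, with 3 higher without 32B5. Hif1a differed by 0.34 (adjusted p = 0.164).

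**Figure D3:**
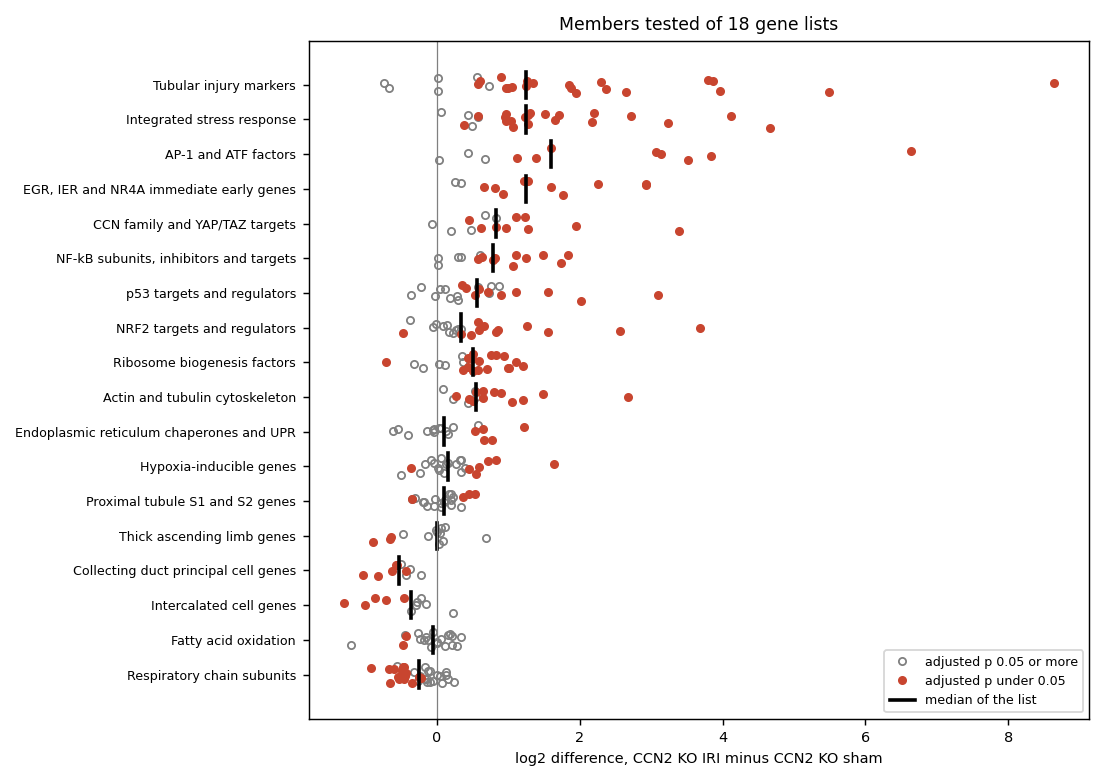
Difference of every tested member of 18 gene lists in the CCN2 KO kidneys, in log2 units on the horizontal axis (filled circles: adjusted p under 0.05 by limma; open circles: the others; black lines: list medians). Injury, stress response and AP-1 lists have medians of 1.25, 1.25 and 1.60, and those of collecting duct, intercalated cell and respiratory chain genes lie at -0.53, -0.36 and -0.25.

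The decreases were smaller and more varied. Arhgef39, a guanine nucleotide exchange factor, gave the largest decrease under the rule for named genes, from 2.69, 3.73, 3.12 and 2.97 in sham to 0.86, 1.24, 1.30, 0.46 and 1.49 after IRI (-2.06 ± 0.24, adjusted p = 3.01e-05). Tmem25, a membrane protein, went from 5.14, 5.58, 5.01 and 5.06 to 3.11, 3.71, 3.42, 3.04 and 4.38 (-1.66, adjusted p = 9.27e-05). Igfbp5, which binds insulin-like growth factors, went from 5.85, 6.04, 5.45 and 5.40 to 3.79, 4.23, 4.29, 4.11 and 4.90 (-1.42, adjusted p = 0.000114). The groups overlapped in none of these, and 33D6 was each time the IRI kidney nearest to sham.

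Klf1, an erythroid Krüppel-like factor, fell by 1.76 (adjusted p = 0.00026), while 5 red blood cell markers had a median of -1.37 with none called (4 at an unadjusted p under 0.05, and 5 called lower without 33D2) and summed to 265 to 845 RPKM in sham and 108 to 734 after IRI. Their mean relative to sham was 0.55 in 33D2 and -1.60 to -2.15 in the other 4 IRI kidneys. Tnfaip8, a regulator of cell death, fell by 1.67 (adjusted p = 0.000803), and Nlrp6, a sensor protein of the NLR family, by 1.54 (adjusted p = 0.0019). Ttr, the thyroid hormone carrier transthyretin, fell by 1.38 (adjusted p = 0.000605), and Aspg, an asparaginase, by 1.36 (adjusted p = 0.00312). The surface protein gene Ly6f (-1.88, adjusted p = 0.00088), Smim5 (-1.60, adjusted p = 6.97e-05) and the adaptor gene Shd (-1.58, adjusted p = 0.000804) completed the genes that remained called in prefix 33 alone. Hpd, which degrades tyrosine, had levels from 1.92 to 4.82 after IRI and 4.88 to 5.54 in sham (-1.57, adjusted p = 0.00878), and in prefix 33 alone gave -1.74 (adjusted p = 0.0524). Dusp15 (-1.42, adjusted p = 0.00674) and Phpt1, a histidine phosphatase (-1.39, adjusted p = 0.0121), gave -1.36 and -0.77 there (adjusted p = 0.0595 and 0.11). Klhdc9 (-1.40, adjusted p = 0.0343) gave -1.08 there, and was also not called without 32B4 (-1.37), 32B5 (-1.21), 33B3 (-1.47), 33D2 (-1.40) or 33D5 (-1.0), at adjusted p of 0.0506 to 0.152.

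Some collecting duct genes fell. These cells fine-tune salt, water and acid excretion. Of 10 principal cell genes 6 were lower and 0 higher, with a median of -0.53, but 2 were lower in prefix 33 alone and 3 without 32B4. Hsd11b2, which shields the mineralocorticoid receptor from cortisol-like hormones, went from 7.84, 7.32, 6.65 and 6.81 to 5.54, 6.34, 6.34, 5.98 and 6.42 (-1.04, adjusted p = 0.00204). Here the 2 sham kidneys of prefix 32 were above the 2 of prefix 33, and in prefix 33 alone the difference was -0.61 (adjusted p = 0.0498). Avpr2, the vasopressin receptor, went from 3.97, 2.74, 2.73 and 2.95 to 2.16, 2.45, 2.06, 2.11 and 2.55 (-0.83, adjusted p = 0.0125), and without 32B4 gave -0.54 (adjusted p = 0.0323). With the prefix as a covariate Avpr2 was not called (-0.60, adjusted p = 0.0848). Nr3c2, the mineralocorticoid receptor, fell by 0.63 (adjusted p = 0.0193), but was not called without 32B4 (-0.55), 33B4 (-0.57) or 33D2 (-0.52) or in prefix 33 alone (-0.62), at adjusted p of 0.0528 to 0.105. Scnn1g, a subunit of the sodium channel ENaC, fell by 0.58 (adjusted p = 0.0384), but was not called without 32B4 (-0.31), 33D2 (-0.58), 33D5 (-0.48) or 33D6 (-0.58) or in prefix 33 alone (-0.35), at adjusted p of 0.0573 to 0.142. The water channel genes Aqp2 and Aqp3 differed by -0.23 and -0.43 (adjusted p = 0.513 and 0.0894).

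Of 11 intercalated cell genes, which serve acid secretion, 5 were lower and 0 higher, with a median of -0.36, and 3 were lower in prefix 33 alone, without 32B4 or without 32B5. The proton pump subunit Atp6v1g3 went from 4.94, 4.96, 4.44 and 4.29 to 3.46, 3.43, 3.80, 3.91 and 3.64 (-1.01, adjusted p = 0.000507). Rhcg, an ammonia channel, went from 6.77, 6.43, 5.93 and 6.16 to 5.27, 5.57, 5.69, 4.99 and 5.78 (-0.87, adjusted p = 0.00109). Groups did not overlap in either gene, and again the prefix 32 sham kidneys were the highest. Atp6v1b1, another pump subunit, fell by 0.71 (adjusted p = 0.0014). Slc4a1, the anion exchanger AE1, which red cells also carry, fell by 1.30 (adjusted p = 0.0142), but was not called without 32B4 (-0.98, adjusted p = 0.0523), without 32B5 (-1.13, adjusted p = 0.0545) or in prefix 33 alone (-0.57, adjusted p = 0.29).

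Genes of the other tubule segments changed in few members, beside 14.3% higher and 13.2% lower over all genes tested. In the thick ascending limb 3 of 13 were lower and 0 higher, with a median of 0.00. Ppp1r1a, a phosphatase inhibitor, fell by 0.90 (adjusted p = 0.00697) and the claudin Cldn10 by 0.64 (adjusted p = 0.00103), whereas Umod, uromodulin, and Slc12a1, the target of loop diuretics, differed by 0.69 and 0.04 (adjusted p = 0.186 and 0.918). In the distal convoluted tubule 2 of 14 were higher and 1 lower. Atp2b1, a calcium pump, rose by 0.96 (adjusted p = 9.5e-05), and Slc12a3, the thiazide-sensitive transporter, differed by 0.17 (adjusted p = 0.651). Calb1, a calcium-binding protein, fell by 0.66 (adjusted p = 0.0209), and was not called without 32B4 (-0.46), without 33D5 (-0.55) or in prefix 33 alone (-0.56), at adjusted p of 0.0556 to 0.0735. Trpv5, a calcium channel, rose by 0.73 (adjusted p = 0.0339), but was not called without 32B5 (0.43), 33B3 (0.71), 33D2 (0.61) or 33D5 (0.67), at adjusted p of 0.0699 to 0.129. With the prefix as a covariate Trpv5 gave 0.70 (adjusted p = 0.0971).

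Few messages of the proximal tubule, the main target of this injury, were called at this time. Its phosphate transporter gene Slc34a1 was at 10.95, 10.95, 11.23 and 11.39 in sham and 11.23, 11.06, 11.23, 11.06 and 11.64 after IRI (0.11 ± 0.16, adjusted p = 0.65). Lrp2, the endocytic receptor megalin, stood at 6.51 to 6.82 and at 6.24 to 6.94 (-0.14, adjusted p = 0.476). In both the groups overlapped widely. The defining markers of proximal tubule were present in every kidney, summing to 3720 to 4890 RPKM in sham and 3530 to 5100 after IRI. Of 21 genes of segments S1 and S2, 3 were higher and 1 lower, with a median of 0.10, where the shares over all genes tested were 14.3% and 13.2%. None of the 7 genes of segment S3 was called (0 at an unadjusted p under 0.05). The sulfate transporter Slc13a1 (0.53, adjusted p = 0.0282), the glucose transporter Slc2a2 (0.45, adjusted p = 0.0385) and the amino acid transporter Slc3a1 (0.37, adjusted p = 0.0425) rose, and the organic anion transporter Slc22a8 fell by 0.35 (adjusted p = 0.0333). None of these 4 calls was stable. Slc13a1 lost its call without 32B4 (0.45), 32B5 (0.47), 33D2 (0.37) or 33D4 (0.51) and in prefix 33 alone (0.33), and Slc2a2 without 32B4 (0.34), 33B3 (0.35), 33D2 (0.39), 33D4 (0.46) or 33D5 (0.41). Slc3a1 lost it without 32B4 (0.37), 32B5 (0.26), 33B3 (0.39), 33D3 (0.34), 33D4 (0.32) or 33D6 (0.32), in prefix 33 alone (0.21) and without WT kidney 32A1, 33A2, 33C1 or 33C3 (0.37), and Slc22a8 without 32B4 (-0.33), 32B5 (-0.28), 33B4 (-0.35) or 33D3 (-0.28) and in prefix 33 alone (-0.23).

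Metabolic genes gave a mixed picture, beside 14.3% higher and 13.2% lower over all genes tested. G6pc, which releases glucose as the last step of gluconeogenesis, went from 7.60, 7.31, 8.80 and 8.78 to 7.46, 6.16, 6.62, 5.54 and 7.52 (-1.46, adjusted p = 0.00913), with sham kidney 32B5 below 33D2 and 33D6. It was the 1 gene called of 8 in gluconeogenesis, where 3 were lower in prefix 33 alone. The gateway enzyme Pck1 differed by -0.58 (adjusted p = 0.0884), and was called without 32B5 (-0.79, adjusted p = 0.0279), without 33D3 (-0.70, adjusted p = 0.0495) and in prefix 33 alone (-0.93, adjusted p = 0.0394). Of 21 fatty acid oxidation genes 2 were lower and 0 higher, Acaa1b (-0.47, adjusted p = 0.0277) and Eci1 (-0.44, adjusted p = 0.013), but 6 were lower in prefix 33 alone and 0 to 5 when 1 CCN2 KO kidney was left out. Acaa1b was not called without 33B3 (-0.42), 33B4 (-0.42), 33D4 (-0.43), 33D5 (-0.45) or 33D6 (-0.44), nor Eci1 without 33B3 (-0.33). Of 21 tubule transcription factors and nuclear receptors 1 was higher and 4 were lower, with 2 lower in prefix 33 alone. Hnf4a, which maintains proximal tubule identity, rose by 0.53 (adjusted p = 0.0182), but not without 32B5 (0.46, adjusted p = 0.0643) or in prefix 33 alone (0.54, adjusted p = 0.0922). Ppargc1a, a coactivator that drives mitochondrial biogenesis, fell by 0.56 (adjusted p = 0.0184), and its partner Esrra by 0.51 (adjusted p = 0.00693), but in prefix 33 alone they gave -0.54 and -0.37 (adjusted p = 0.0787 and 0.0988). Emx1, a homeobox factor of the distal nephron, fell by 0.95 (adjusted p = 0.00167). Lhx1, a homeobox factor of nephron development, fell by 0.65 (adjusted p = 0.0291), and lost its call without 32B4 (-0.60), 33B3 (-0.61), 33B4 (-0.63), 33D3 (-0.60) or 33D5 (-0.48) and in prefix 33 alone (-0.73).

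Some respiratory chain subunits encoded in the nucleus fell by small amounts. Of 35 tested, 16 were lower and 0 higher, with a median of -0.25, but 11 were lower without 32B5 and 7 in prefix 33 alone. Ndufa5, a subunit of complex I, went from 6.13, 6.03, 5.48 and 5.24 to 4.82, 4.47, 4.86, 5.10 and 4.75 (-0.92, adjusted p = 0.00228), and gave -0.56 in prefix 33 alone (adjusted p = 0.0464). Uqcrh, of complex III, went from 7.40, 7.55, 6.92 and 6.78 to 6.48, 6.12, 6.63, 6.61 and 6.60 (-0.67, adjusted p = 0.00766), and gave -0.36 there (adjusted p = 0.178). In both the prefix 32 sham kidneys were higher than those of prefix 33, which in turn were above all IRI kidneys. None of 9 mitochondrially encoded genes was called (0 at an unadjusted p under 0.05). Of these subunits 23 of 35 belong to the shortest quartile of genes by summed exon length (up to 2435 bases).

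Length moved with the direction of change over all genes. In 12478 genes with a GENCODE M21 length, 19.6% of the shortest quartile were lower and 6.3% higher, whereas 7.0% of the longest quartile were lower and 20.7% higher. Median differences were -0.234, -0.057, 0.039 and 0.101 from the shortest to the longest quartile. The part of length in the respiratory chain result, and in other lists of short or long genes, was not tested. RNAs without a poly(A) tail, whose level depends on how RNA was selected, had a median of -0.56 over 8 members, none called and 1 at an unadjusted p under 0.05. Their mean relative to sham was 0.98 and 0.90 in 32B4 and 32B5, -0.52 and -1.36 in 33B3 and 33B4, and -1.96, -0.94, -0.93, -0.26 and 0.55 in 33D2 to 33D6. They were thus high in the sham kidneys of prefix 32 and in 33D6, and their part in the results was not tested.

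**Figure D4:**
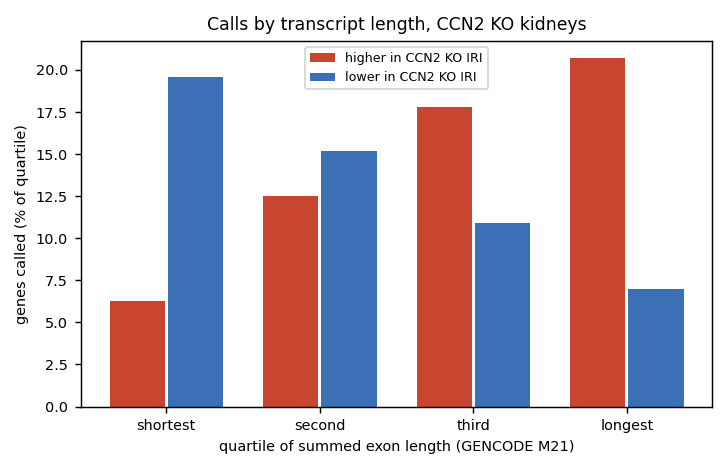
Share of genes called higher and lower after IRI in the CCN2 KO kidneys (vertical axis, percent of the genes of each quartile, limma) by quartile of summed exon length from the shortest to the longest. The share lower goes from 19.6% to 7.0% and the share higher from 6.3% to 20.7%.

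Other cell types of the cortex showed few changes, beside 14.3% higher and 13.2% lower over all genes tested. Of 14 endothelial markers 1 was lower, Ehd3 of glomerular endothelium (-0.84, adjusted p = 0.0192), which was not called without 32B5 (-0.76), 33B3 (-0.77) or 33D2 (-0.74) or in prefix 33 alone (-0.79), at adjusted p of 0.0511 to 0.0879. The summed endothelial markers were 98.3 to 148 RPKM in sham and 89.0 to 126 after IRI. Of 10 podocyte markers 2 were higher, Cd2ap (0.82, adjusted p = 0.000876), which tubule cells also express, and Plce1 (0.96, adjusted p = 0.0398), with sums of 79.7 to 151 and 111 to 149. Plce1 was not called without 32B4 (0.61), 33B3 (1.03), 33D2 (0.95), 33D3 (0.96), 33D4 (0.87) or 33D5 (1.01) or in prefix 33 alone (0.63), at adjusted p of 0.054 to 0.133. Of 13 fibroblast and pericyte markers Cspg4 was higher (0.84, adjusted p = 0.0162), with sums of 123 to 172 and 105 to 203. Cspg4 was not called without 32B5 (0.72, adjusted p = 0.0606) or with the prefix as a covariate (0.50, adjusted p = 0.11). Of 18 interferon-induced genes Irf1 rose by 0.51 (adjusted p = 0.0122) and Rsad2 fell by 0.76 (adjusted p = 0.00763), but neither was called in prefix 33 alone (0.52 and -0.67, adjusted p = 0.0556 and 0.0626). Of 18 circadian clock genes Bhlhe40 rose by 0.88 (adjusted p = 0.00653) and Per3 fell by 0.62 (adjusted p = 0.019), the latter not without 32B5 (-0.59), 33B3 (-0.57) or 33D2 (-0.53). None of 11 MHC genes was called (2 at an unadjusted p under 0.05), but 2 were higher without 33D5 or 33D6 and 1 in prefix 33 alone.

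The response of the CCN2 KO kidneys was then set against that of the WT kidneys, which have controls of their own, by the difference of both responses in the same model. In WT 2458 genes were higher and 2558 lower after IRI. The difference of responses passed the threshold in 23 genes (0.182% of those tested), 16 above and 7 below 0, and in 1884 at an unadjusted p under 0.05. Of the 23, 9 were called in both labels in the same direction, 6 in opposite directions, and 8 in WT alone.

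Rap2b, a small GTPase, gave the largest difference below 0 among genes that passed. It stood at -0.50 to 0.16 in CCN2 KO sham and at 1.19, 0.66, 1.81, 1.13 and -0.11 after IRI (1.11), while WT kidneys went from -0.62 to 0.12 in sham to 3.17 to 3.56 (3.55). The responses differed by -2.45 ± 0.41 (adjusted p = 0.0186). Every CCN2 KO IRI kidney lay below every WT IRI kidney in Rap2b. The immediate early gene Ier2 differed likewise, with a CCN2 KO response of 0.81 and a WT response of 2.66 (-1.86, adjusted p = 0.0313), as did Btg1 with 0.84 and 2.42 (-1.57, adjusted p = 0.0416). Eif4e, which binds the cap of messenger RNA, responded by 0.30 and 1.12 (-0.82, adjusted p = 0.0186), and Crem, a cAMP-responsive factor, by 0.38 and 2.0 (-1.62, adjusted p = 0.0467). Cinp, a protein of genome maintenance, and Tmem55b, a lysosomal phosphatase, moved in opposite directions in the labels, with -0.42 and 0.42 for Cinp (-0.84, adjusted p = 0.0408) and -0.27 and 0.40 for Tmem55b (-0.67, adjusted p = 0.0127).

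Among genes that passed above 0, Tmem88b differed most, with a CCN2 KO response of -0.48 and a WT response of -2.72 (2.25 ± 0.37, adjusted p = 0.0186). Bsnd, which encodes the chloride channel subunit barttin, was at 5.36, 4.63, 4.55 and 4.55 in CCN2 KO sham and 3.91, 4.09, 4.34, 3.53 and 4.67 after IRI, and at 4.71 to 4.95 and 2.10 to 2.93 in the WT groups. Its responses were -0.66 and -2.27 (1.61, adjusted p = 0.0461). Zkscan3, a zinc finger repressor of autophagy genes, responded by -0.57 and -2.05 (1.49, adjusted p = 0.00862), Fgfr3, a growth factor receptor, by -0.28 and -1.58 (1.30, adjusted p = 0.0263), and Pde4c, a cAMP phosphodiesterase, by -0.82 and -2.05 (1.23, adjusted p = 0.0416). Gpam, which starts glycerolipid synthesis, rose by 0.63 in CCN2 KO kidneys and fell by 0.93 in WT kidneys (1.56, adjusted p = 0.0263). Ppp1r10, a nuclear regulator of a phosphatase, rose by 0.67 and fell by 0.59 (1.25, adjusted p = 0.0186).

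Several responses of the CCN2 KO kidneys themselves were small. Those of Crem, Tmem88b and Fgfr3 were not called (adjusted p = 0.209, 0.179 and 0.198), although Crem was without 33D6 (0.57, adjusted p = 0.0254), and Tmem88b and Fgfr3 were without 32B4 (-0.74 and -0.44, adjusted p = 0.0288 and 0.0399). In prefix 33 alone, Ier2 (0.86, adjusted p = 0.0701), Btg1 (0.72, adjusted p = 0.0954), Eif4e (0.33, adjusted p = 0.07), Cinp (-0.34, adjusted p = 0.06), Tmem55b (-0.22, adjusted p = 0.109), Gpam (0.28, adjusted p = 0.352) and Bsnd (-0.44, adjusted p = 0.257) were not called. Gpam also missed without 32B4 (0.59) or 32B5 (0.44), Bsnd without 32B4 (-0.47), 33D2 (-0.62) or 33D5 (-0.52), and Eif4e without 32B5 (0.27), 33B4 (0.27), 33D3 (0.28), 33D4 (0.29) or 33D5 (0.28). Zkscan3 was not called with the prefix as a covariate (-0.45, adjusted p = 0.0626).

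The calls for the difference of responses depended on single libraries. The difference passed the threshold under all 17 omissions of a library for Zkscan3 and Tmem55b, under 15 for Tmem88b and Ppp1r10, 14 for Eif4e, 13 for Rap2b, 10 for Fgfr3, 9 for Gpam and 8 for Ier2. It did so under 5 for Bsnd, Pde4c, Crem and Cinp and under 4 for Btg1. The number of genes called ranged from 7 without 33C4 to 78 without 33D3, and was 3 in prefix 33 alone. For the leading genes of the response, the interval between labels was wide. The differences were -2.56 ± 0.75 for Plaur, -4.06 ± 0.97 for Cxcl1 and -3.45 ± 1.07 for Chac1, with adjusted p of 0.138, 0.0973 and 0.153, against 0.11 ± 0.75 for Krt20 (adjusted p = 0.964).

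**Figure D5:**
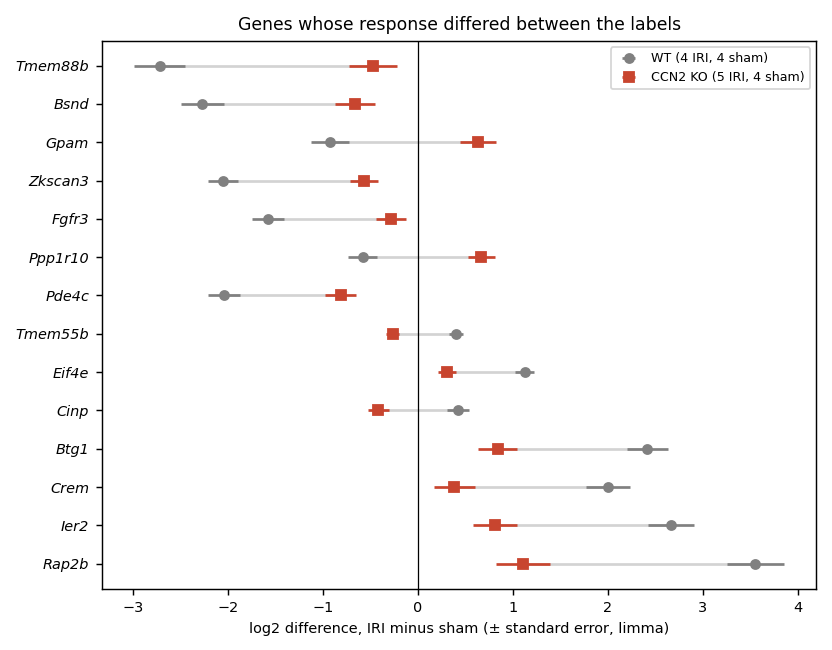
Response to IRI (IRI minus sham, log2 units, ± SE of limma) in CCN2 KO kidneys (squares, 5 IRI and 4 sham) and WT kidneys (circles, 4 IRI and 4 sham) for 14 genes whose responses differed. Rap2b, Ier2, Btg1 and Crem rise further in WT, Tmem88b and Bsnd fall further in WT, and Gpam and Ppp1r10 move in opposite directions.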

How the data were processed

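The 17 libraries came from kidney cortex, were selected for poly(A) RNA, made with a directional kit and sequenced single-end. Per the labels and the methods, reads were aligned to GRCm38 with STAR 2.4.2a, read groups were added with Picard, and genes were counted with HTSeq 0.6.1p1, and edgeR gave RPKM. The strand setting and the annotation used for counting are not given in the sources used here, so that overlapping genes may share reads. The authors deposited log2 RPKM values, quantile-normalized over samples, for 38293 genes in 30 columns, of which 13 match no sample and were not used. Quantile normalization gives all libraries the same distribution, which hides any change in total RNA, and read depth cannot be recovered from it. Columns with the sample titles gave the groups.

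Genes were kept where at least 4 of 17 kidneys exceeded log2 0 (RPKM 1). Then limma 3.58.1 (R 4.3.3; trend in the prior variance) fitted 1 mean for each of the 4 groups, without covariates, and contrasts gave the responses and their difference. Ctgf was tested by exact permutation. The fit was tested on simulated data with 200 changed genes. Gene names were matched to GENCODE M21 for 36345 identifiers, and 783 of 785 list genes matched. Genes named are the 15 largest called increases and decreases without overlap and with a mean over log2 0, those the study measured by PCR or protein, the leading or listed members of 51 gene lists, members against their list, and up to 8 differences of responses in each direction. A few genes that met this rule are not reported here. The members of the lists, the lists themselves and the genes named were chosen with earlier results of these data known. Alternatives were other filters, log2(RPKM + 1), median centring, sample weights, other prior variances, the title prefix as covariate or prefix 33 alone, CCN2 KO kidneys alone, omission of each kidney and, added after seeing the data, a replicate block on the title number.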

Additional observations from a re-analysis of the deposited data

Results flagged for a closer look

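Of 384 groups of 4 or 5 CCN2 KO kidneys looked at (192 named genes in sham and in IRI), 33 had 1 kidney set apart from its group. The rule was a gap to the next kidney of more than 0.829 of the range among 4 kidneys, or 0.71 among 5. It flags about 1 in 20 groups of independent, normally distributed values without ties, but these genes were measured in the same kidneys and some values were tied at the floor. The low IRI kidney was 33D6 for 13 genes. Its log2 RPKM was 0.92 for Fos, 1.48 for Fosl1, 0.70 for Atf3, 3.47 for Klf6, -1.44 for Klf5, 1.43 for Tgif1, 0.43 for Socs3, 1.78 for Cxcl1 and 4.13 for Eif4e. The same kidney was low for Cyr61 (4.75), Plaur (2.13), Sprr1a (1.10) and F3 (3.65). In the other IRI kidneys 33D3 was low for Tob2 (4.45) and 33D2 high for Errfi1 (8.22).

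Among sham kidneys, 32B5 lay below the others for 6 genes, at 4.62 for Nuak2, -2.65 for Lcn2, 2.37 for Klf6, 3.06 for Tob2, 6.77 for Herpud1 and 2.96 for Utp20. Sham kidney 32B4 lay above the others for Atf3 (0.81), Hspb1 (3.03), Ppp1r1a (7.03), Bsnd (5.36) and Emx1 (4.76), and below them for Tgif1 (0.83), Per3 (2.19) and Plce1 (-1.78). Kidney 33B3 was high for Krt20 (-1.79) and Areg (-2.35), and 33B4 was high for Cxcl2 (-2.01) and low for Mt1 (7.02). For Krt20, Areg and Cxcl2 all other sham kidneys were at the floor, so that any value above it was flagged.

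The response to IRI differed between CCN2 KO and WT kidneys by limma's test of the difference for 14 named genes. Response in CCN2 KO minus response in WT was negative for Rap2b (-2.45), Ier2 (-1.86), Crem (-1.62), Btg1 (-1.57), Cinp (-0.84), Eif4e (-0.82) and Tmem55b (-0.67). It was positive for Tmem88b (2.25), Bsnd (1.61), Gpam (1.56), Zkscan3 (1.49), Fgfr3 (1.30), Ppp1r10 (1.25) and Pde4c (1.23).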

How the results depend on the processing

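The main fit takes its spread from all 4 groups, WT included. Against its 3463 genes called (1800 higher, 1663 lower), CCN2 KO kidneys alone gave 2786 (1502 and 1284). The title prefix as a covariate gave 2203 (1197 and 1006) and prefix 33 alone 2093 (1176 and 917). Omission of a kidney gave 2478 (1331 and 1147, without 32B5) to 3707 (1931 and 1776, without 32A2). The difference of responses, 23 genes, gave 14 with no filter, 34 with the stricter filter (8 kidneys over log2 2), 41 on log2(RPKM + 1), 231 with sample weights, 33 with a robust prior variance, 30 with the prefix as a covariate, 3 in prefix 33 alone and 7 (without 33C4) to 78 (without 33D3) by omission. Of 163 named genes called in CCN2 KO kidneys, 145 stayed called in the fit to these kidneys alone and 125 with the prefix as a covariate. The cause of these shifts was not tested, beyond the loss of kidneys under prefix 33 alone and in the fit to CCN2 KO kidneys alone. Titles of prefix 33 share a number after the letter between groups (33B3 and 33D3, 33B4 and 33D4), but no source ties the number to a litter or day, and deviations from the group means correlated at -0.09 to 0.07 over 10 same-numbered pairs. A replicate block on that number, chosen after seeing the data and fitted to the 11 kidneys that share one, gave 1451 genes (868 higher, 583 lower) and 0 differences of responses by limma (1327 at an unadjusted p under 0.05). That fit leaves out prefix 32, 33D5 and 33D6.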
